A study of Mus musculus with 4 samples.

Results

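Transforming growth factor beta (TGF-beta) signalling was examined in hair follicles through 10 genes: the ligand genes Tgfb1, Tgfb2 and Tgfb3, the receptor genes Tgfbr1, Tgfbr2 and Tgfbr3, the signal transducers Smad2, Smad3 and Smad4, and Tgfbi, a TGF-beta-induced matrix gene. Every probe set that the platform annotation assigns to one of these symbols alone was taken, which gave 22 of the 22626 probe sets that are not controls, and 10 of 12393 named genes. Each gene had at least 1 probe set.

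Follicles of untreated dorsal skin were cut out by laser microdissection from N1 mice, all labelled male, at day 14 after birth, and RNA was measured on 1-colour Affymetrix arrays. The N1 mice came from a male Hos:HR-1 mouse, homozygous for the recessive hairless allele HrHos, and a female +/HrHos offspring of an HR-1 and an ICR mouse. The controls are 2 samples labelled +/HrHos (heterozygous replicates 3 and 4), so that they too carry 1 copy of the allele. They are compared with 2 samples of HrHos / HrHos follicles (homozygous replicates 2 and 3). Each sample pooled 50 to 70 follicles, the outlined part of the follicle is not stated, and the labels do not tie an array to an animal. The p-values below therefore rest on a spread between samples that may be technical. Labels conflict for homozygous replicate 3. Its title names it homozygous, its source name bears replicate number 2 instead of 3, and its strain field reads heterozygous. The arrays of both homozygous samples hold different values (r = 0.929 over kept probe sets). Homozygous replicate 3 was about as close to heterozygous replicate 3 (r = 0.929). The 2 heterozygous samples were the least alike of all pairs (r = 0.884), against 0.906 to 0.931 between the genotypes. The samples thus did not group by genotype. For the brightest probe set of each member, the difference is also given with homozygous replicate 3 counted as heterozygous. Differences of the other probe sets and of the pathway lists are not given in that way, though they depend on the same label.

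Heterozygous replicate 4 went against its male label. Xist, the RNA of the inactive X chromosome, read 6996 on its brightest probe set there and 68.8 to 85.6 in the other samples. The Y-linked gene Eif2s3y read 11.2 there and 343 to 516 in the others. Among the controls, differences of this library and of sex cannot be told apart, and each member's difference is given without it below.

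TGF-beta ligands are secreted in a latent form and, once freed, bind the type II receptor (Tgfbr2), which recruits and activates the type I receptor (Tgfbr1). The activated type I receptor phosphorylates Smad2 and Smad3, which enter the nucleus with the common partner Smad4. In hair follicles the pathway is known as a driver of catagen, the regression phase, and Hr encodes a nuclear corepressor needed for that regression to end in a new hair cycle. The comparison asks whether transcripts of the pathway differ between the genotypes shortly before regression.

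No member differed between the genotypes beyond the spread between samples. Of the 22 probe sets, 10 were bright enough to be kept for the test, and limma called 0 of these 10 at an adjusted p under 0.05, as it called 0% of all 13576 kept probe sets. At an unadjusted limma p under 0.05 there were 0 of 10 members, against 2.30% of all kept probe sets. The groups did not overlap in 5 of the 22 probe sets, 4 with both homozygous samples higher and 1 with both lower, against 29.0% of all 22626 (14.6% higher and 14.5% lower). Among the 10 kept probe sets they did not overlap in 1, Smad3, which was lower, against 26.9% of all kept probe sets (13.6% higher and 13.3% lower). In each of the 22, the larger of the gaps between samples of one genotype exceeded the difference between the genotype means, which was so in 82.7% of all probe sets. Over the brightest probe set of each gene the median log2 difference, homozygous minus heterozygous, was 0.03, beside 0.01 over all named genes.

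**Figure D1:**
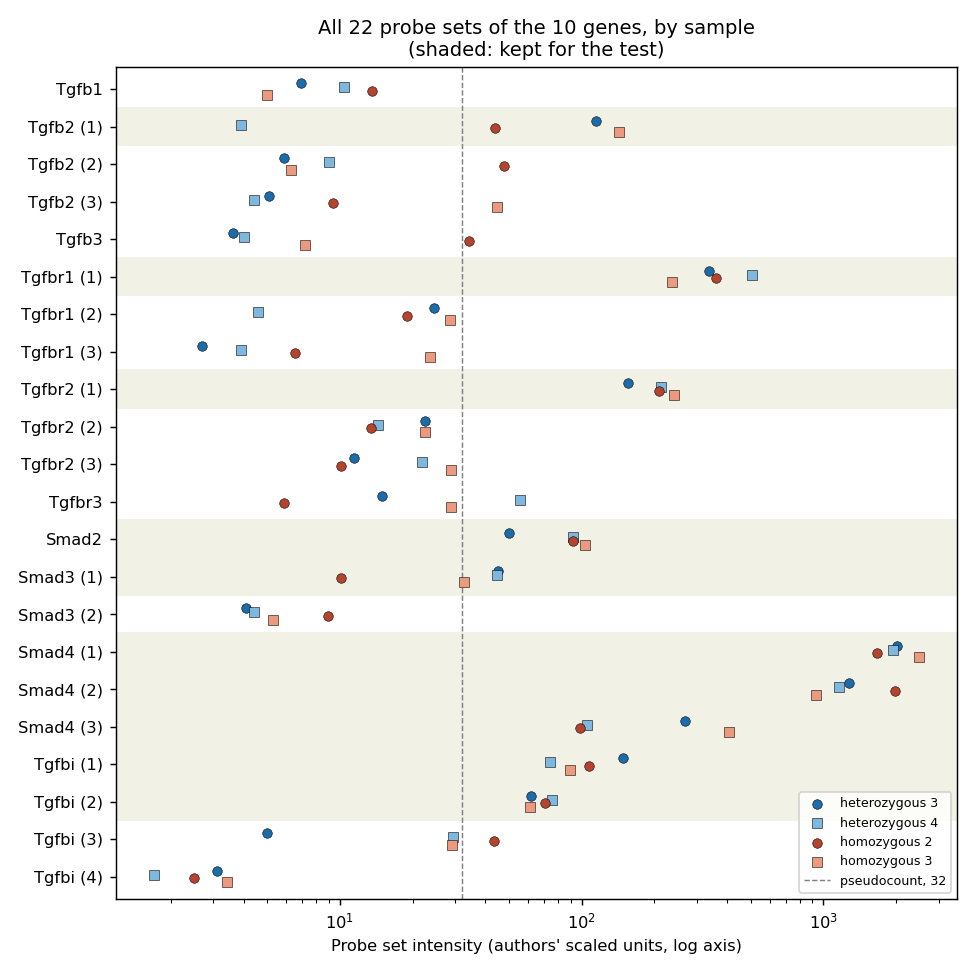
Intensity of the 22 probe sets of the 10 genes in each of the 4 samples, on a log axis; numbers in brackets order the probe sets of a gene by brightness, shading marks the 10 kept for the test, and the dashed line is the pseudocount of 32. The samples of the 2 genotypes intermingle in most probe sets, and the other 12 probe sets lie mostly to the left of the dashed line.

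Intensities are the authors' linear values, scaled to a common level on each array. They depend on the probes as well as on the transcript, so no gene's level is set against another's. Differences are on the log2(intensity + 32) scale, which understates those of dim probe sets. With 2 samples per group the median 95% limma interval, which is unadjusted, reached 0.93 (1.90-fold) to either side. Differences below that size thus mostly could not reach an unadjusted p under 0.05. After adjustment limma called 0 of the 13576 kept probe sets, whatever the size of their difference. Larger differences may therefore also have gone without a call. In tissue of several cell types, fewer cells of a type and less RNA per cell cannot be told apart.

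Of the ligands, Tgfb2 alone had a kept probe set. It read 114.7 in heterozygous replicate 3 and 3.9 in replicate 4, beside 43.9 in homozygous replicate 2 and 142.4 in replicate 3; all pairs of values below keep this order. Heterozygous replicate 4 was at the bottom of the scale, at the 7.62 percentile of its array, while heterozygous replicate 3 lay at the 70.1 percentile, between the homozygous samples. The log2 difference was 0.66 ± 0.62 (SE, n = 2 per group), with a 95% interval from -0.71 to 2.04 and a limma adjusted p of 1.00. It turned to -0.36 with homozygous replicate 3 counted as heterozygous and to -0.35 without heterozygous replicate 4. Without heterozygous replicate 3 it was 1.68 ± 0.50 (limma unadjusted p = 0.00252, adjusted p = 0.207), and without homozygous replicate 2 it was 1.26 ± 0.61 (limma unadjusted p = 0.0424, adjusted p = 1.00), so that the values of single samples set its size and sign. Each of these fits leaves 1 sample in an arm, which is assumed to vary like the others.

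The other probe sets of Tgfb2 were dim and differed from each other in the sample that was high. The second read 5.9 and 9.0 in heterozygous follicles and 47.7 and 6.3 in homozygous follicles. The third read 5.1 and 4.4 against 9.4 and 44.7, so the genotypes did not overlap. Homozygous replicate 2 was thus the highest in the second and homozygous replicate 3 in the third. All 3 differences were above 0, at 0.66, 0.49 and 0.62.

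Tgfb1 and Tgfb3, the other ligands, each had a single dim probe set that was not kept. Tgfb1 read 6.9 and 10.4 in heterozygous follicles and 13.6 and 5.0 in homozygous follicles, which is a log2 difference of 0.02. All 4 samples were below the pseudocount, and the homozygous samples were both the highest and the lowest. Tgfb3 read 3.6 and 4.0 against 34.1 and 7.2, which is a log2 difference of 0.51 in which homozygous replicate 2 stood apart. Its groups did not overlap, but without homozygous replicate 2 the difference was 0.13. With homozygous replicate 3 counted as heterozygous Tgfb1 differed by 0.21 and Tgfb3 by 0.84. In the fit without a filter on brightness neither passed limma (unadjusted p = 0.934 for Tgfb1 and 0.102 for Tgfb3; adjusted p of 1.00 for both). At this brightness a difference in Tgfb1 or Tgfb3 transcripts may not be visible on these arrays.

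The type I receptor gene Tgfbr1 and the type II receptor gene Tgfbr2 each had 1 bright probe set and 2 dim ones. The bright one of Tgfbr1 read 337 and 508 in heterozygous follicles and 359.7 and 237 in homozygous follicles. Homozygous replicate 3 was the lowest and heterozygous replicate 4 the highest, while the other two lay close together. The log2 difference was -0.46 ± 0.47 (SE, n = 2 per group; 95% interval -1.49 to 0.57; limma adjusted p of 1.00). Its 2 dim probe sets had the opposite sign, at 0.29 and 0.39, with all samples between 2.7 and 28.5. The mean over the 3 probe sets differed by 0.074, and the bright one differed by 0.055 with homozygous replicate 3 counted as heterozygous.

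The bright probe set of Tgfbr2 read 156 and 214 in heterozygous follicles and 209.6 and 241 in homozygous follicles. Heterozygous replicate 3 was the lowest, and heterozygous replicate 4 lay between the homozygous samples. The log2 difference was 0.26 ± 0.41 (95% interval -0.66 to 1.17; limma adjusted p of 1.00), and its 2 dim probe sets differed by -0.01 and 0.07. With homozygous replicate 3 counted as heterozygous the bright one differed by 0.05. The interval on the ratio of homozygous to heterozygous follicles ran from 0.635 to 2.25 for Tgfbr2 and from 0.356 to 1.49 for Tgfbr1, so differences of up to about these sizes remain possible for both receptors.

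Tgfbr3, which encodes betaglycan, a co-receptor that presents ligand to the signalling receptors, had 1 dim probe set. It read 14.9 and 55.5 in heterozygous follicles and 5.9 and 28.8 in homozygous follicles, which is a log2 difference of -0.42 that was not tested after filtering. The groups overlapped, since heterozygous replicate 3 lay between the homozygous samples. The gap between the heterozygous samples, 0.90, was more than the difference between the genotypes, which was -0.73 with homozygous replicate 3 counted as heterozygous.

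**Figure D2:**
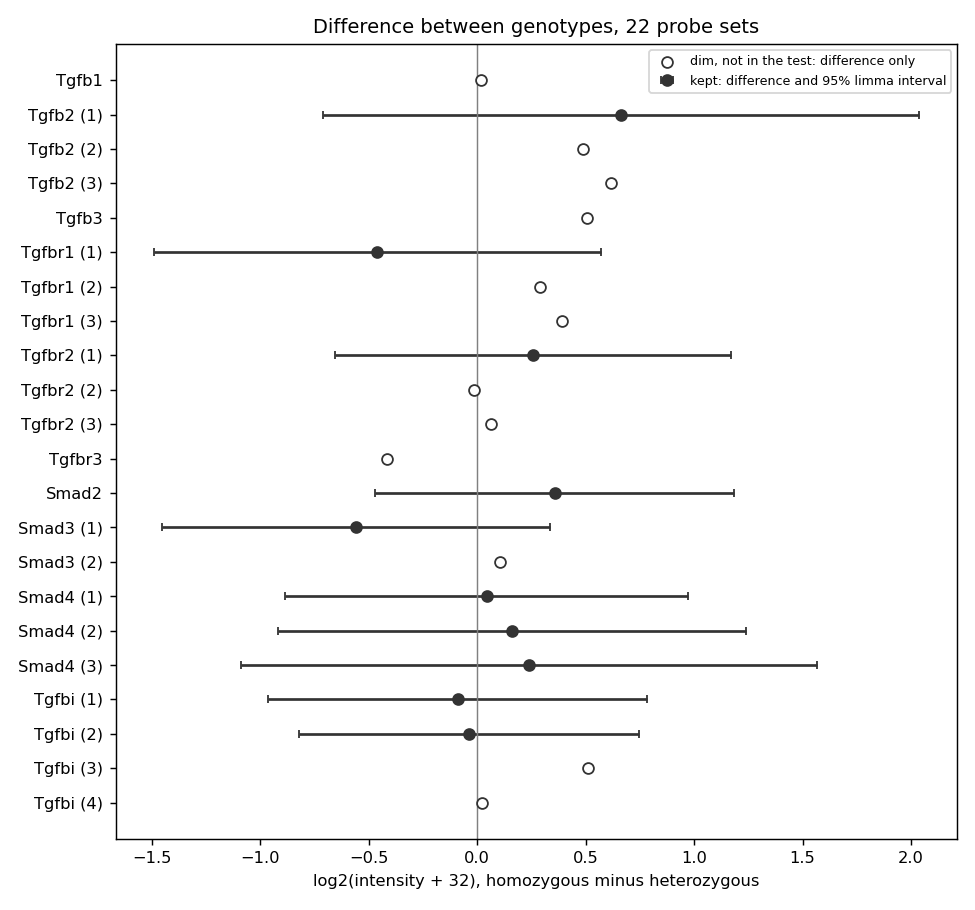
Difference between homozygous and heterozygous follicles on the log2(intensity + 32) scale for each of the 22 probe sets, in the order and numbering used for the intensities. Filled points are the 10 kept probe sets with their 95% limma intervals, all of which cross 0, and open points are the 12 dim ones, given without an interval; the points range from -0.56 (Smad3) to 0.66 (Tgfb2).

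The receptor-regulated transducer Smad2 was measured by 1 probe set, which read 50 and 92.3 in heterozygous follicles and 91.7 and 103.5 in homozygous follicles. Heterozygous replicate 3 was the low sample, and the other 3 lay close together. The log2 difference was 0.36 ± 0.37 (SE, n = 2 per group; 95% interval -0.47 to 1.19; limma adjusted p of 1.00). Without heterozygous replicate 3 it was 0.06, and without heterozygous replicate 4 it was 0.66; with homozygous replicate 3 counted as heterozygous it was 0.15.

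Smad3, the other receptor-regulated transducer of the pathway, had the smallest unadjusted p of the kept members. Its brighter probe set read 45.0 and 44.5 in heterozygous follicles and 10.1 and 32.7 in homozygous follicles, and both homozygous samples were below both heterozygous ones. The log2 difference was -0.56 ± 0.40 (95% interval -1.45 to 0.34; limma unadjusted p = 0.197, adjusted p of 1.00). The homozygous samples lay near or below the pseudocount, and the homozygous samples differed from each other by 0.62. The difference between genotypes ran from -0.87 to -0.25 when any single sample was left out. It was -0.78 with homozygous replicate 3 counted as heterozygous. Neither change could turn its sign, because the groups did not overlap and homozygous replicate 2 was the lowest sample. The other Smad3 probe set read 4.1 and 4.4 against 8.9 and 5.3, a difference of the opposite sign (0.11) at the bottom of the scale. The name of the brighter one marks probes shared between transcripts (suffix _s_at), and that of the other does not.

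Smad4, the common partner of TGF-beta and BMP Smads, had 3 kept probe sets, and its brightest one lay at the 97.3 percentile of all probe sets by mean. It read 2013 and 1935 in heterozygous follicles and 1667 and 2489 in homozygous follicles, so that the log2 difference was 0.05 ± 0.42 (95% interval -0.88 to 0.97; limma adjusted p of 1.00). The heterozygous samples lay between the homozygous ones. On the ratio scale the interval ran from 0.542 to 1.96. The difference was -0.35 with homozygous replicate 3 counted as heterozygous.

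The second Smad4 probe set ordered the samples differently from the first. It read 1271 and 1158 in heterozygous follicles and 1978 and 931.5 in homozygous follicles, so that homozygous replicate 2 was the highest and replicate 3 the lowest, the reverse of their order in the first. The third read 267 and 105 against 98.2 and 407, in the same order of samples as the first, and its gaps within the genotypes were 1.12 and 1.75. The differences between genotypes were 0.16 ± 0.49 and 0.24 ± 0.60 (SE).

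Tgfbi encodes an extracellular matrix protein induced by TGF-beta and was measured by 4 probe sets. The brightest read 149 and 74.1 in heterozygous follicles and 107.7 and 89.3 in homozygous follicles, with the homozygous samples between the heterozygous ones. The log2 difference was -0.09 ± 0.40 (SE, n = 2 per group; 95% interval -0.96 to 0.78; limma adjusted p of 1.00), and 0.076 with homozygous replicate 3 counted as heterozygous. The second kept probe set read 61.7 and 75.5 against 70.6 and 61.2, a difference of -0.04 ± 0.35. Both kept probe sets are of the kind whose name marks probes that can also match other transcripts (suffix _x_at).

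The remaining Tgfbi probe sets were dim. The third read 5.0 and 29.3 in heterozygous follicles and 43.3 and 29.1 in homozygous follicles, which is a log2 difference of 0.51 in which heterozygous replicate 3 stood apart. The fourth lay between 1.7 and 3.4 in all samples, at the 1.21 to 7.14 percentile of the arrays. A probe set that is named for Tgfbi and lies at the bottom of the scale in every sample thus stands beside one at 74.1 to 149.

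Of the 6 members with several probe sets, 4 (Tgfbr1, Tgfbr2, Smad3 and Tgfbi) had probe sets whose differences pointed in opposite directions, a share of 66.7% against 58.8% of the 4956 genes with several probe sets over the whole array. In all 4 the split was between the brightest probe set and at least 1 dim one.

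Without heterozygous replicate 4 limma also called 0 members and 0 of 13576 probe sets. The remaining heterozygous sample is then alone in its arm and is assumed to vary like the homozygous ones. The differences were then 0.079 for Tgfb1, -0.35 for Tgfb2 and 0.52 for Tgfb3 among the ligands, and -0.18 for Tgfbr1, 0.45 for Tgfbr2 and 0.034 for Tgfbr3 among the receptors. They were 0.66 for Smad2, -0.56 for Smad3, 0.017 for Smad4 and -0.47 for Tgfbi. The signs of Tgfb2 and Tgfbr3 thus turned without this sample, and those of the other 8 genes did not.

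The spread within the genotypes was uneven among the members. Over the brightest probe sets the median gap between the 2 homozygous samples was 0.56, beside 0.34 over all named genes. The median gap between the 2 heterozygous samples was 0.47, beside 0.42 over all named genes. The gap between the homozygous samples was under 0.25 for Tgfbr2, Smad2 and Tgfbi, 0.30 for Tgfb1, and over 0.50 for Tgfb2, Tgfb3, Tgfbr1, Tgfbr3, Smad3 and Smad4.

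**Figure D3:**
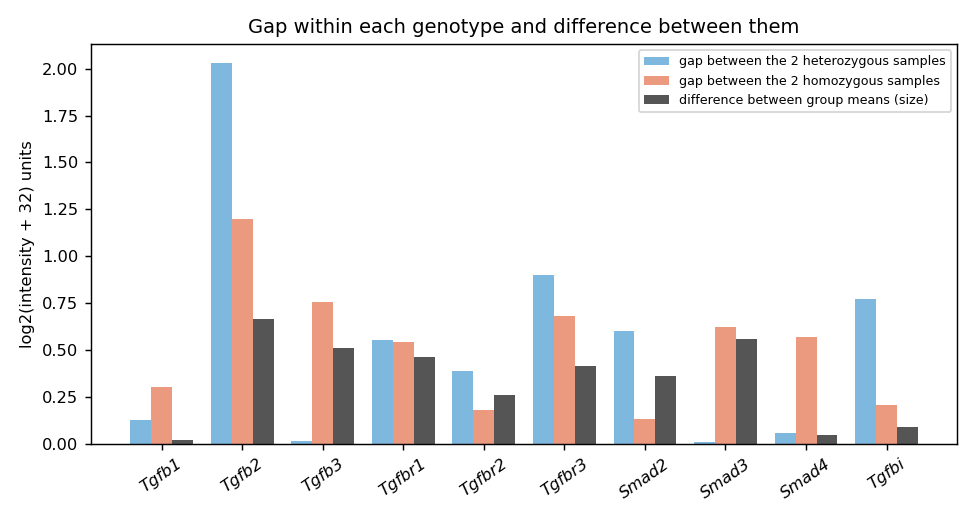
For the brightest probe set of each gene, the gap between the 2 heterozygous samples (blue), the gap between the 2 homozygous samples (orange) and the size of the difference between the genotype means (grey), in log2(intensity + 32) units. In all 10 genes at least 1 coloured bar is taller than the grey one; Tgfb2 has the tallest, with a gap of 2.03 between the heterozygous samples.

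The genes whose pattern over the 4 samples lay nearest to that of Smad3 were Birc3, an inhibitor of apoptosis, Mphosph10, a protein of ribosomal RNA processing, Catsper2 and Fndc10. Likeness was the root mean square distance between log2 values centred on each gene's mean, and was 0.03, 0.04, 0.05 and 0.05 for these 4 genes. Birc3 read 175 and 172 in heterozygous follicles and 86.9 and 141.5 in homozygous follicles. Among 8556 genes compared, 36 lay within 0.10, so with 4 samples many genes come this near.

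The wider pathway was described through 8 lists of 79 gene entries, of which 69 were measured and 60 kept. Limma called 0 of these 60 at an adjusted p under 0.05, against 0% of all kept probe sets, and 0 at an unadjusted p under 0.05, against 2.30%. Of the 69 genes 29 lay above 0 and 40 below, with a median log2 difference of -0.03. The groups did not overlap in 18 of them, 9 in each direction, against 14.6% higher and 14.5% lower of all probe sets.

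Genes that store and free the latent ligand had a median log2 difference of 0.03 over 9 measured genes, 5 above 0 and 4 below. Itgav, the integrin alpha subunit that binds latent TGF-beta, was the brightest and had the smallest p. It read 5252 and 7802 in heterozygous follicles and 5190.1 and 3537 in homozygous follicles, with a difference of -0.58 ± 0.36 (SE, n = 2 per group; limma unadjusted p = 0.141, adjusted p of 1.00). The groups did not overlap, although homozygous replicate 2 came close to heterozygous replicate 3, and of its 2 dim probe sets 1 had the opposite sign (0.34). The latent-ligand binding protein gene Ltbp4 differed by 0.27 ± 0.45, and Mmp14, a membrane-bound metalloprotease, by 0.12 ± 0.37.

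Co-receptors and receptor adaptors had a median of -0.05 over 6 genes, 2 above 0 and 4 below. Bambi, a pseudoreceptor that blocks TGF-beta and BMP receptors, had a limma unadjusted p of 0.0551 (adjusted p of 1.00) and read 500.5 and 395 against 889.8 and 923. Dab2, an adaptor between receptors and Smads, differed by -0.39 ± 0.37, and the endothelial co-receptor gene Eng by -0.09 ± 0.36. Fkbp1a, which encodes a protein that holds the type I receptor inactive, had 5 probe sets with differences from -0.58 to 1.18. Its brightest, with the suffix _x_at, read 2924 and 2648 against 2972 and 2691, a difference of 0.02 ± 0.38. Another, without that suffix, read 217.8 and 192 against 529 and 479.8, a difference of 1.18 with a limma unadjusted p of 0.0205 and an adjusted p of 1.00.

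Inhibitors and feedback genes had a median of 0.18 over 10 genes, 7 above 0 and 3 below, and in 3 of them both homozygous samples were higher, against 14.6% of all probe sets. Smad7, the inhibitory Smad that TGF-beta itself induces, read 42.0 and 94.2 in heterozygous follicles and 105.8 and 159 in homozygous follicles (0.75 ± 0.40; limma unadjusted p = 0.0915, adjusted p of 1.00). Smad6, an inhibitory Smad of the BMP branch, read 29.4 and 34.9 against 43.5 and 66.5 (0.43 ± 0.38). Pmepa1, a TGF-beta-induced inhibitor of Smad phosphorylation, read 429.7 and 351 against 455 and 609 (0.41 ± 0.46), and its 2 other probe sets also lay above 0. None passed the test, and Skil, another feedback inhibitor, differed by -0.41 ± 0.49 while Trim33, a regulator of Smad4, differed by 0.05 ± 0.48.

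The activin arm, whose ligands signal through other receptors to the same Smad2 and Smad3, had a median of -0.01 over 11 genes, 5 above 0 and 6 below. Acvr2a, a type II activin receptor gene, had 2 kept probe sets, and in both the homozygous samples lay below the heterozygous ones. The brighter read 530.2 and 864 against 423 and 292 (-0.89 ± 0.48; limma unadjusted p = 0.0931) and the other 176 and 155 against 97.5 and 82.8 (-0.69; limma unadjusted p = 0.0874), with adjusted p of 1.00 for both. The type I receptor gene Acvr1b read 597 and 626 against 674 and 726, a difference of 0.19 ± 0.45 in the opposite direction. The subunit genes Inhbb and Inha differed by -0.52 ± 0.42 and -0.38 ± 0.40.

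Nuclear partners of the Smads had a median of -0.42 over 5 genes, 1 above 0 and 4 below, with groups that overlapped in all 5. The 3 genes with the smallest p encode forkhead factors. Foxo3 read 3240 and 6343 in heterozygous follicles and 1864 and 4049 in homozygous follicles (-0.72 ± 0.48; limma unadjusted p = 0.162, adjusted p of 1.00). Foxo1 differed by -0.42 ± 0.60, and its other probe sets ranged from -0.16 to 0.11. Foxh1 differed by -0.54 ± 0.44 and read 23.0 and 74.3 against 24.0 and 17.6, so that heterozygous replicate 4 alone stood high. The dim probe sets of Foxh1 differed by 0.40 and -0.59.

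The non-Smad branch, through which the receptors reach other kinases, had a median of -0.29 over 7 genes, 1 above 0 and 6 below. Tab1 and Tab2, which encode partners of the TGF-beta-activated kinase, differed by -0.55 ± 0.37 (SE, n = 2 per group; limma unadjusted p = 0.165, adjusted p of 1.00) and -0.33 ± 0.45. Tab2 read 2832 and 2630 in heterozygous follicles and 3101 and 1508 in homozygous follicles, so that homozygous replicate 3 alone stood low. The dim probe set of Tab2 had the opposite sign (0.46). Mapk14, the p38 alpha kinase gene, differed by 0.44 ± 0.46, while its other kept probe sets differed by -0.19 and -0.006 and a dim one by 0.10.

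**Figure D4:**
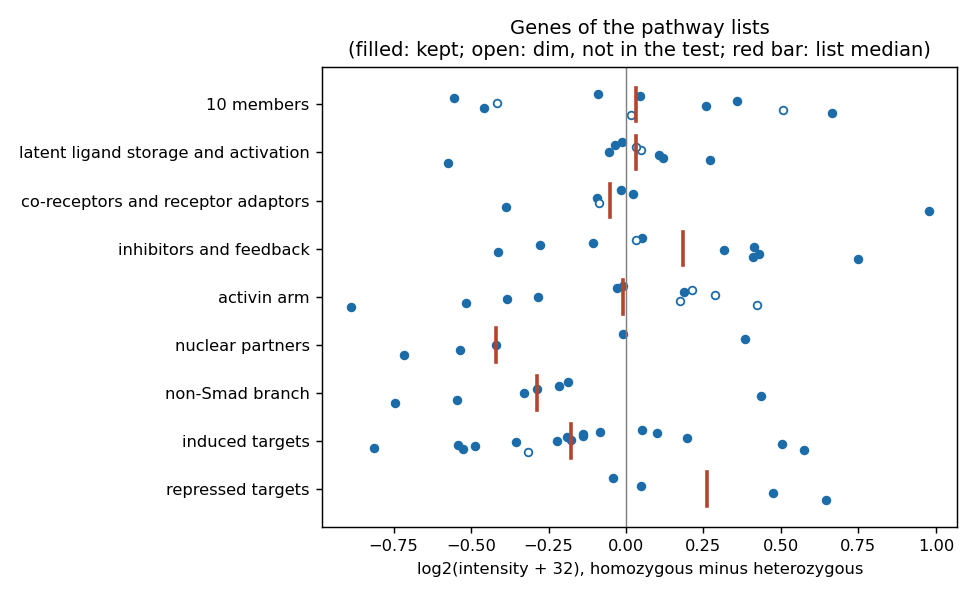
Difference between homozygous and heterozygous follicles on the log2(intensity + 32) scale for the 10 members and for the measured genes of the 8 pathway lists, 1 point per gene at its brightest probe set; filled points were kept for the test and red bars are list medians. Points of each list lie on both sides of 0, and medians range from -0.42 for nuclear partners to 0.26 for repressed targets; no point passed the test.

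Genes that TGF-beta is known to induce had a median of -0.18 over 17 genes, 5 above 0 and 12 below. The feedback genes Smad7, Pmepa1 and Skil, at 0.75, 0.41 and -0.41, were counted with the inhibitors and not here, so these counts depend on how the lists were split. Both homozygous samples were lower in 3 (Col1a1, Snai2 and the dim Nox4) and higher in 1 (Junb), against 14.5% and 14.6% of all probe sets. Snai2, a transcription factor of epithelial plasticity, read 78.4 and 128 in heterozygous follicles and 50.5 and 76.8 in homozygous follicles (-0.49 ± 0.38; limma unadjusted p = 0.225, adjusted p of 1.00). Junb, an AP-1 subunit gene, read 28.8 and 50.5 against 64 and 83.7 (0.57 ± 0.37). Klf10, the TGF-beta-inducible early gene, read 257 and 1162 against 261 and 350.4, so that heterozygous replicate 4 alone stood high (-0.81 ± 0.63). Tsc22d1 (suffix _x_at) differed by 0.05 ± 0.34, Ccn2, the connective tissue growth factor gene, by -0.08, and Cdkn1a, the p21 cell cycle inhibitor gene, by -0.14.

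Of these induced genes 3 (Col1a1, Col1a2 and Tagln) are also markers of fibroblasts or smooth muscle. Without them the median was -0.14 over 14 genes, 5 above 0 and 9 below. The summed intensity of 11 dermal fibroblast markers was 12424 and 10131 in heterozygous follicles and 6157 and 6323 in homozygous follicles, with 9 of 11 differences below 0. The part of the fibroblast markers in the values of the induced genes and of Tgfbi was not tested.

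Genes that TGF-beta represses in epithelial cells had a median of 0.26 over 4 genes, 3 above 0 and 1 below. Id2, an inhibitor of basic helix-loop-helix factors, read 386 and 365 against 640.5 and 571 (0.64 ± 0.45; limma unadjusted p = 0.179, adjusted p of 1.00), though its 2 dimmer probe sets had the opposite sign. Id1 differed by 0.47 ± 0.42, Id3 by -0.04 and Myc by 0.05 ± 0.36.

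As to the arrays as a whole, median intensities ran from 43.5 to 52.6, and all 11 measured hair follicle keratinocyte markers were kept, with summed intensities from 22148 to 31858. Adipocyte markers summed to 13314 and 12205 in heterozygous follicles and 10101 and 5867 in homozygous follicles (5 of 5 differences below 0), and melanocyte markers to 1469 and 3135 against 3126 and 5538 (4 of 5 above 0). Smooth muscle markers summed to 2286 and 1432 against 1332 and 1395 (4 of 6 below 0). Most of these sums was Acta2, which read 2112 and 1315 against 1200 and 1253. Endothelial markers summed to 355 and 315.5 against 267 and 360.5 (5 of 8 below 0) and leukocyte markers to 334 and 295 against 398 and 284 (3 of 9 below 0). Of the endothelial and leukocyte markers, Pecam1, Tie1, Vwf, Cd3e and Itgam lay under the pseudocount in all samples, and no marker was listed at 0. Control probe sets of Gapdh and Actb read far more at the 3' end than in the middle of the transcript on every array. For Gapdh the ratios were 17.2 and 30.1 in heterozygous follicles and 15.4 and 14.8 in homozygous follicles. For Actb they were 42.1 and 11.3 against 45.9 and 33.7, so that heterozygous replicate 4 stood apart in both. All 9 spike-in controls of the hybridization read lower on both homozygous arrays, by a mean of -1.01 on the same log2 scale. The part of these differences in the members' values was not tested.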

How the data were processed

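The authors deposited linear intensities, 1 per probe set, and had scaled them: from the values, the mean after trimming 2% at each end was 165 on each array. Neither the software nor the background correction is given in the sources used here. Sections were 8 micrometres thick, per the labels' protocols.

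Intensities were transformed to log2(intensity + 32). Of 22690 probe sets, 64 controls were left out and the 60% of the other 22626 with the highest mean were kept (13576). Names came from the platform annotation: 20380 probe sets had 1 symbol, 691 several and 1555 none. No genome build is named with the values, so no coordinates are given.

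Kept probe sets were tested with limma (version 3.58.1, under R 4.3.3; lmFit and trended eBayes; two-sided; 2 residual and 8.64 prior degrees of freedom). P-values were adjusted by Benjamini-Hochberg over these probe sets, with a threshold of 0.05. All differences are homozygous minus heterozygous, a gene is represented by its brightest probe set, and lists are described by counts and medians without a set test. Members and lists were chosen with earlier results of these data known. All members are named with all probe sets. From each pathway list the 3 kept genes with the smallest unadjusted p and the brightest gene are named, except 1 gene that is not reported here; Skil, Ccn2, Cdkn1a, Id3, Col1a1, Col1a2, Tagln, Nox4 and the second Fkbp1a probe set were added after their values were seen. Marker lists of follicle keratinocytes, fibroblasts, adipocytes, melanocytes, endothelium, leukocytes and smooth muscle are given by their sums. Alternatives were other pseudocounts, no filter, quantile normalization, the grouping by strain field, robust eBayes, the mean of a gene's probe sets and leaving out each sample.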

Additional observations from a re-analysis of the deposited data

How the results depend on the processing

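Member probe sets called by limma stayed at 0 under all 11 alternatives. Over all probe sets the count stayed at 0 except without heterozygous replicate 3, where it was 51, so that the counts without one sample ran from 0 to 51, and none of the 51 was a member. The median log2 difference over the 10 genes, 0.03, was 0.10 with the mean of the probe sets of a gene. With homozygous replicate 3 counted as heterozygous, as in its strain field, the sign changed for Tgfb2 (-0.36), Tgfbr1 (0.055), Smad4 (-0.35) and Tgfbi (0.076), and with the mean of the probe sets for Tgfbr1 (0.074) and Tgfbi (0.10). Without one sample, differences ran from -0.35 to 1.68 for Tgfb2, from -0.24 to 0.33 for Smad4, from -0.47 to 0.30 for Tgfbi, from -0.13 to 0.17 for Tgfb1 and from -0.87 to 0.034 for Tgfbr3, all of which changed sign. They ran from -0.73 to -0.18 for Tgfbr1, from 0.063 to 0.45 for Tgfbr2, from 0.059 to 0.66 for Smad2, from -0.87 to -0.25 for Smad3 and from 0.13 to 0.88 for Tgfb3. The cause was not tested. Pseudocounts of 16 and 64 and quantile normalization kept the sign of every tested member. No paired analysis was possible because the groups share only 1 replicate number. With 2 samples per group and 12 of the 22 probe sets too dim for the test, absence of a call does not show absence of a difference.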

Other observations

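Some probe sets of pathway genes, picked after their values were seen, read higher in heterozygous replicate 3 and homozygous replicate 3 than in the other two samples. Examples are the brightest probe set of Tgfb2, the brightest and the dimmest of Smad4, and Sp1, which encodes a general transcription factor. Sp1 read 677 and 73.1 in heterozygous follicles and 266 and 392.5 in homozygous follicles. The second probe set of Smad4 and the brightest of Pmepa1 did not show this order, although a dimmer probe set of Pmepa1 did, at 302 and 68.0 against 168 and 257.5. The list is not complete. Which of the probe sets follows the transcript was not tested. The part of the 3' excess on the arrays in these disagreements was not tested either.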
